A study of Mus musculus with 10 samples.

Results

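Of the genes measured, 10 were followed that are widely used as readouts of reactive gliosis and retinal stress: Gfap, Vim, Lcn2, Serpina3n, Cp, Edn2, Fgf2, Osmr, Stat3 and Socs3. They were taken by gene symbol from a table of 57010 genes, and all 10 were among the 15539 genes expressed highly enough to be tested. RNA was sequenced from whole retinas of 10 mice that were 6 to 8 weeks old. Into the vitreous, 5 mice received AAV2-GFP and 5 received AAV206-GFP, and the retinas were taken 14 days later. Both vectors are adeno-associated viruses (AAV) that carry green fluorescent protein (GFP), so the groups differ in the capsid. AAV2 is a standard serotype that reaches inner retinal neurons from the vitreous, while the study's title describes its vector as specific for the retinal pigment epithelium. Uninjected or sham-injected eyes were not analysed here, and no value below is relative to an untreated retina. The labels give no strain, sex or batch and do not say whether 1 or both eyes of a mouse were used.

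Reactive gliosis is the response of Müller glia and astrocytes to injury, in which the intermediate filament proteins GFAP and vimentin accumulate and secreted proteins such as lipocalin 2 appear. In stressed retinas, leukaemia inhibitory factor (LIF) and related cytokines of the interleukin-6 family bind receptors built around gp130 (Il6st), JAK kinases phosphorylate STAT3, and STAT3 switches on target genes that include its own inhibitor Socs3. Photoreceptors under stress make endothelin 2 (Edn2), which is received by endothelin receptor B on Müller glia, and fibroblast growth factor 2 (Fgf2) acts as a survival factor for photoreceptors.

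STAT proteins bind a palindrome of the form TTCNNNGAA. RefSeq promoter windows (GRCm38.p6, 250 bases before to 50 after the start of transcription) were found for all 10 genes, in 11 windows, since Cp had more than one. The palindrome, which reads the same on both strands, was present in the windows of 2 of the 10 genes, Gfap and Socs3, and in 8.30% of all 32851 windows. A narrower form, TTCCNGGAA, every match of which is also a match of the wider form, was present in 1 of the 10, Gfap, and in 1.15% of all windows. The stretches with the match are shown because GFAP and SOCS3 are the usual transcript readouts of STAT3 activity in glia. The match is in capitals and begins 2 bases before the RefSeq start in Gfap (chr11:102897194-102897300, minus strand) and 154 bases before it in Socs3 (chr11:117969467-117969566, minus strand). A match of letters describes the sequence and does not show that a factor is bound there.
Gfap: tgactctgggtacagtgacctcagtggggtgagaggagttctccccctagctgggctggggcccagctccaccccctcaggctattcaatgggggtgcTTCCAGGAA
Socs3: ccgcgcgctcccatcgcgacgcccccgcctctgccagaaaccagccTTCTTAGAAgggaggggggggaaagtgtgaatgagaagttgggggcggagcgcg

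Several libraries stood apart from the rest of their group, and this bears on every result that follows. Total counts were even, from 10989843 to 12752604 per library. Markers of microglia and macrophages summed to 278 CPM (counts scaled to a common library size) in AAV2-GFP replicate 1, against 28.0 to 54.3 in the other AAV2-GFP mice and 23.2 to 32.0 with AAV206-GFP. Markers of T and NK lymphocytes summed to 28.2 CPM in that mouse and to at most 1.35 in any other. Neutrophil markers summed to 6.69 CPM in the same mouse and to at most 1.69 in any other, with 4 of 8 at 0 in all 10 retinas. Myelin genes, a list added after the data were seen, summed to 66.6 and 66.7 CPM in AAV206-GFP replicates 2 and 4 and to 70.4 and 79.0 in AAV2-GFP replicates 4 and 1, against 145 to 334 in the other 6. The summed level of 4 Y-linked genes in AAV206-GFP replicate 4 was 48.2% of the average of its 4 group mates. A fit without this library alone is given below for Vim only, so calls of other genes may also turn on it. Markers of Müller glia, the main glial cell of the retina, were high in every library, at 3557 to 4475 CPM in sum with AAV2-GFP and 3317 to 3957 with AAV206-GFP.

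None of the 10 genes passed the test between the vectors when all 10 mice were compared. With edgeR's quasi-likelihood test, 0 of 10 had a Benjamini-Hochberg adjusted p-value under 0.05, against 11.2% of all tested genes. Without adjustment 2 of 10 had a p-value under 0.05, Vim and Socs3, both lower with AAV206-GFP, against 28.0% of all tested genes. The median log2 fold change of the 10 (AAV206-GFP over AAV2-GFP) was -0.23, and that of all tested genes was -0.01. In every one of the 10 the groups overlapped, while 9.78% of tested genes showed no overlap (5.41% with AAV206-GFP above). The count past the threshold was also 0 with limma-voom, against 10.6% of all tested genes. It was 0 with DESeq2, which gave an adjusted value for 9 of the 10, against 12.6% of all genes in that fit. With limma-voom and sample weights it was 1, against 13.9% of all tested genes. That gene was Fgf2, with a log2 fold change of 0.67. In bulk RNA, fewer cells of a type and less RNA per cell cannot be told apart.

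The picture changed when AAV2-GFP replicate 1 was left out. Fgf2, Lcn2 and Edn2 then passed the threshold, all higher with AAV206-GFP, so that 3 of 10 passed against 12.2% of all tested genes (6.38% higher and 5.80% lower). The same 3 were the genes in which the groups no longer overlapped, against 7.12% of tested genes with AAV206-GFP above. AAV2-GFP replicate 1 held the highest of the 10 values in 9 of the 10 genes, all but Gfap, whereas it was highest in 11.3% of tested genes. In 5 genes it was at least 2-fold above the mean of the other 9 mice (Lcn2 6.29-fold, Edn2 4.96-fold, Serpina3n 4.15-fold, Osmr 2.36-fold and Socs3 2.13-fold), against 2.61% of tested genes. The fitted direction of 4 genes (Lcn2, Serpina3n, Edn2 and Osmr) turned from below to above 0 without it. This mouse was set apart on its values in these same data, so the p-values without it are given as a description. The fits below that left out a further mouse share this omission and are not independent of it. The part of immune cells in the high values of this mouse was not tested.

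**Figure D1:**
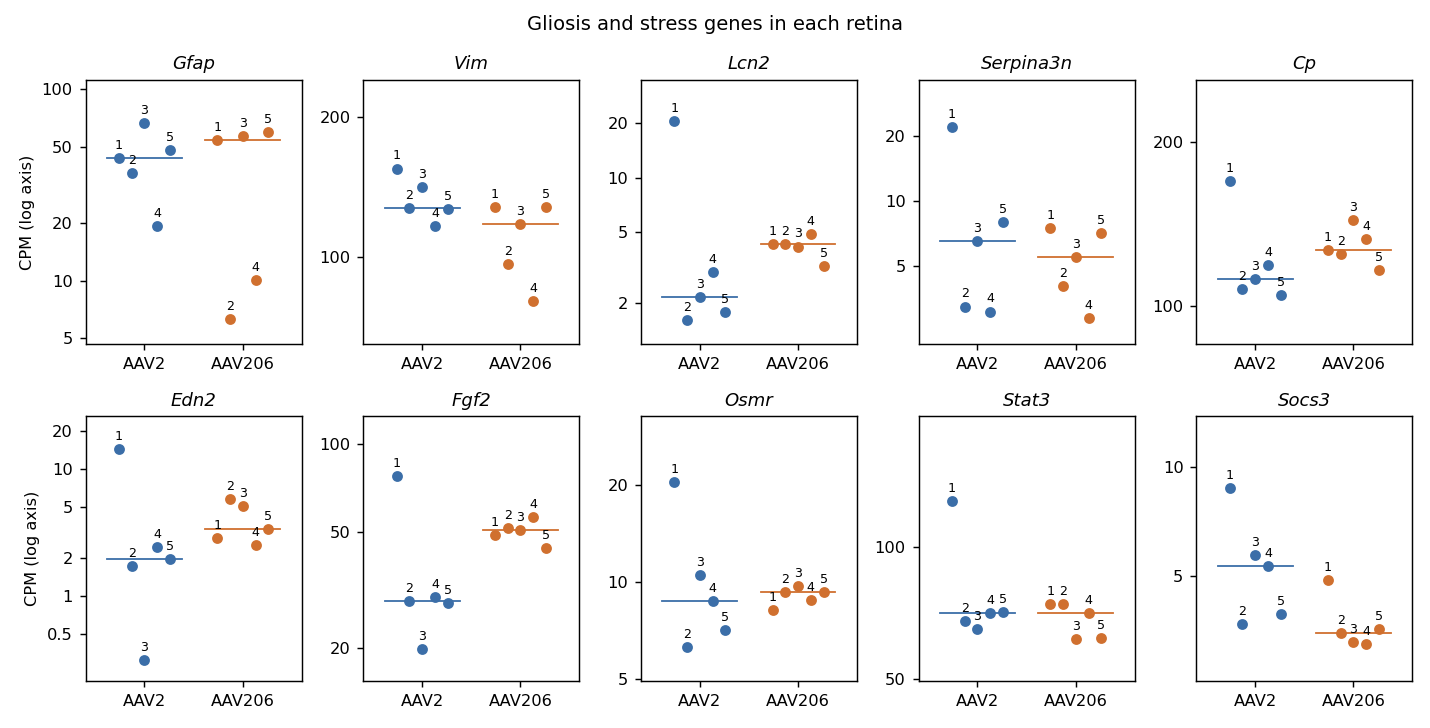
Level of each of the 10 genes in every retina, in CPM on a log axis. Each point is 1 mouse with its replicate number, and the line is the group median. AAV2-GFP replicate 1 is the highest point in 9 of the 10 panels, and Gfap and Vim are lowest in AAV206-GFP replicates 2 and 4.

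Compared per kilobase of exon, the median levels over the 10 mice ran from Vim (26.9 CPM per kb) over Cp (12.7), Gfap (10.9), Stat3 (7.42) and Fgf2 (6.87) to Serpina3n (2.91), Edn2 (1.84), Lcn2 (1.40), Socs3 (1.32) and Osmr (0.747). Vim was above Cp in all 10 mice and Socs3 above Osmr in all 10. Most other neighbours in this order could not be separated: Gfap was above Stat3 in 6 mice, Serpina3n above Edn2 in 6 and Lcn2 above Socs3 in 4. Fgf2 was above Serpina3n in 9. By this measure the vimentin gene was the highest of the group in these retinas, and the receptor gene Osmr the lowest. The divisor was the merged length of all annotated exons, 12113 bases for Osmr and 2891 for Socs3. In CPM, Osmr was above Socs3 in every mouse and Cp above Vim in some. Both ends of this order therefore depend on the divisor.

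Gfap (ENSMUSG00000020932, chr11:102887336-102900912, minus strand, mm10) encodes the filament protein that astrocytes make at rest and Müller glia gain in gliosis. Its level in the AAV2-GFP mice, replicates 1 to 5, was 43.9, 36.4, 66.2, 19.2 and 48.3 CPM. With AAV206-GFP it was 54.3, 6.29, 57.0, 10.05 and 59.5 CPM. The groups overlapped, and the AAV206-GFP mice split into 3 within the upper AAV2-GFP range and 2, replicates 2 and 4, below every AAV2-GFP mouse. The means were 42.8 ± 17.2 and 37.4 ± 26.8 CPM (SD, n = 5). The fitted log2 fold change was -0.19 (standard error, SE, 0.46, edgeR adjusted p = 0.822), with a 95% interval from -1.09 to 0.71. Gfap varied 10.5-fold over the 10 retinas, and it was the 1 gene of the 10 whose highest value was not in AAV2-GFP replicate 1.

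Vim (ENSMUSG00000026728, chr2:13573927-13582826, plus strand) encodes vimentin, the filament protein that Müller glia make constantly. The AAV2-GFP mice had 155, 128, 142, 117 and 127 CPM and the AAV206-GFP mice 128, 96.8, 118, 80.7 and 128 CPM. The same 2 AAV206-GFP mice, replicates 2 and 4, were the lowest of all, and the other 3 lay inside the AAV2-GFP range. In 13.0% of all tested genes, AAV206-GFP replicates 2 and 4 were both among the lowest 3 of the 10 libraries. The log2 fold change of Vim was -0.28 (SE 0.11), and its edgeR p-value was 0.0280 before and 0.127 after adjustment. Without AAV206-GFP replicate 4 it was -0.18 (edgeR adjusted p = 0.261).

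AAV206-GFP replicates 2 and 4, which were low in Gfap and Vim, were also low in myelin transcripts, as were AAV2-GFP replicates 1 and 4. Mobp, a myelin protein gene, was at 0 in AAV2-GFP replicates 1 and 4 and in AAV206-GFP replicates 2 and 4, and between 13.0 and 46.4 CPM in the other 6 mice. Axons inside the mouse retina normally carry no myelin, which begins behind the eye in the optic nerve. Over the 9 mice other than AAV2-GFP replicate 1, the Pearson correlation of log2(CPM + 1) with the summed myelin level was 0.87 for Gfap, 0.83 for Serpina3n and 0.67 for Vim, and Gfap and Vim had 0.86 with each other. The correlation with myelin was 0.01 for Edn2, -0.01 for Socs3 and -0.17 for Lcn2. With all 10 mice the values with myelin were 0.78 for Gfap, 0.41 for Vim and 0.23 for Serpina3n. AAV2-GFP replicate 1 was low in myelin and highest in Vim. These values describe 10 or 9 libraries, of which 4 or 3 are low in myelin, and carry no test.

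When the summed myelin level was entered as a covariate, a fit added after the data were seen, both filament genes passed as lower with AAV206-GFP. The log2 fold change of Gfap was -1.06 (edgeR adjusted p = 0.0231) and the log2 fold change of Vim was -0.37 (edgeR adjusted p = 0.0266). Without AAV2-GFP replicate 1 the values were -0.91 (edgeR adjusted p = 0.0123) and -0.29 (edgeR adjusted p = 0.0230). Among the mice not low in myelin, the myelin sum was 145 to 235 CPM with AAV2-GFP and 273 to 334 CPM with AAV206-GFP. Among these mice the covariate thus differed between the vectors, and its effect cannot be fully told apart from theirs. The share of all tested genes past the threshold in these fits is not given here. Without AAV206-GFP replicates 2 and 4 the uncorrected fold change of Gfap turned to 0.41 (edgeR adjusted p = 0.408). Whether pieces of optic nerve were carried along in dissection was not tested.

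**Figure D2:**
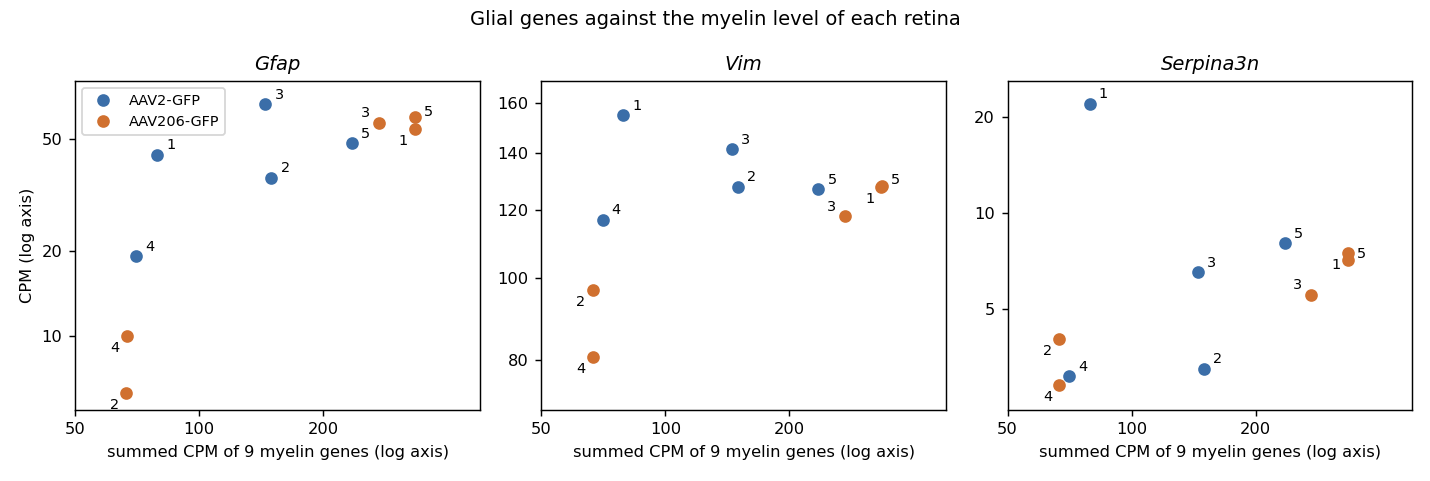
Level of Gfap, Vim and Serpina3n in each retina against the summed level of 9 myelin genes, both in CPM on log axes. Points are mice with their replicate numbers, in blue for AAV2-GFP and orange for AAV206-GFP. AAV206-GFP replicates 2 and 4 lie at the lower left of the Gfap and Vim panels, and AAV2-GFP replicate 1 lies high in Serpina3n at a low myelin level.

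Lcn2 (ENSMUSG00000026822, chr2:32384633-32388252, minus strand) encodes lipocalin 2, a secreted protein that binds bacterial siderophores and is induced in reactive glia. It was at 20.5, 1.62, 2.17, 2.98 and 1.79 CPM in the AAV2-GFP mice. The AAV206-GFP mice had 4.29, 4.29, 4.14, 4.84 and 3.22 CPM. Replicate 1 thus stood 9.59-fold above the mean of the other AAV2-GFP mice, and those 4 mice lay below all 5 AAV206-GFP mice. With all mice the log2 fold change was -0.47 (SE 0.57, edgeR adjusted p = 0.626). Without AAV2-GFP replicate 1 the levels were 2.14 ± 0.607 CPM (SD, n = 4) and 4.16 ± 0.588 CPM (SD, n = 5), a 1.93-fold higher level with AAV206-GFP (log2 fold change 0.95, SE 0.24, edgeR adjusted p = 0.0186). In the 9 fits that left out a further mouse, Lcn2 passed in 8 with log2 fold changes of 0.84 to 1.14. The exception was the fit without AAV2-GFP replicate 5 (edgeR adjusted p = 0.0510). The gene rests on few reads, 18 to 37 counts in the 4 AAV2-GFP mice and 38 to 54 with AAV206-GFP.

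Serpina3n (ENSMUSG00000021091, chr12:104406729-104414329, plus strand) encodes a secreted inhibitor of serine proteases and marks reactive astrocytes in many injuries. Its values were 22.1, 3.23, 6.50, 3.07 and 8.03 CPM with AAV2-GFP and 7.49, 4.01, 5.52, 2.87 and 7.12 CPM with AAV206-GFP. Outside AAV2-GFP replicate 1 the groups covered nearly the same range. The log2 fold change was -0.66 (SE 0.44, edgeR adjusted p = 0.350), and 0.06 without replicate 1 (edgeR adjusted p = 0.928).

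Cp (ENSMUSG00000003617, chr3:19957054-20009145, plus strand) encodes ceruloplasmin, a copper-containing ferroxidase that lets cells release iron. The AAV2-GFP mice had 169, 107, 112, 119 and 105 CPM and the AAV206-GFP mice 127, 125, 144, 133 and 116 CPM. Replicate 1 of AAV2-GFP was again the highest, and of the other 4 only replicate 4 reached into the AAV206-GFP range. The log2 fold change was 0.07 (SE 0.11, edgeR adjusted p = 0.704). Without replicate 1 it was 0.22 (SE 0.07, edgeR adjusted p = 0.0510), which did not pass. Cp overlaps the gene Hps3 on the opposite strand (67.4 to 97.7 CPM), and the named library kit does not mark strand. Reads in the overlap therefore cannot be told apart by strand. The counts of Cp and Hps3 carried decimals in 0 libraries. Hps3 was itself higher with AAV206-GFP (log2 fold change 0.31, edgeR adjusted p = 0.00981), and its part in the Cp values was not tested.

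Edn2 (ENSMUSG00000028635, chr4:120161206-120167360, plus strand) encodes endothelin 2, the peptide that stressed photoreceptors release. The AAV2-GFP mice had 14.4, 1.71, 0.309, 2.42 and 1.97 CPM. The AAV206-GFP mice had 2.86, 5.84, 5.09, 2.51 and 3.39 CPM. Edn2 had the widest spread of the 10 genes, 46.5-fold, with both extremes in the AAV2-GFP group: 159 counts in replicate 1 and 4 counts in replicate 3. With all mice the log2 fold change was -0.06 (SE 0.62, edgeR adjusted p = 0.961). Without AAV2-GFP replicate 1 it was 1.301 (SE 0.40, edgeR adjusted p = 0.0459), a 2.46-fold higher level with AAV206-GFP. That call was fragile, because it held in 3 of the 9 fits that left out a further mouse (adjusted p 0.0414 to 0.114). It was lost without AAV2-GFP replicate 3, the lowest mouse, where the log2 fold change was 0.94 (edgeR adjusted p = 0.0907). The margin between the groups was also narrow, at 2.42 CPM in the highest of the 4 AAV2-GFP mice and 2.51 CPM in the lowest AAV206-GFP mouse.

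Other genes of the endothelin pathway did not pass. Of 7 listed genes 5 were tested and 0 passed, with all mice or without AAV2-GFP replicate 1. By edgeR, 0 had an unadjusted p-value under 0.05, and 0 passed with DESeq2 or limma-voom. The smallest p-values were those of the converting enzyme gene Ece1 (log2 fold change 0.12, edgeR adjusted p = 0.301), the receptor gene Ednra (-0.25, edgeR adjusted p = 0.663) and the receptor gene Ednrb (0.11, edgeR adjusted p = 0.768). Ednrb, which encodes the receptor on Müller glia and astrocytes, was lowest in AAV2-GFP replicate 1 (6.24 CPM) and AAV206-GFP replicate 2 (6.66 CPM) and reached 12.6 CPM in AAV2-GFP replicate 5 and AAV206-GFP replicate 1. Over the 9 mice without AAV2-GFP replicate 1 its correlation was 0.93 with Gfap and 0.91 with the myelin sum.

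Fgf2 (ENSMUSG00000037225, chr3:37348346-37410108, plus strand) encodes basic fibroblast growth factor. In the AAV2-GFP mice it was at 77.6, 29.0, 19.9, 29.9 and 28.7 CPM. In the AAV206-GFP mice it was at 48.9, 51.6, 51.0, 56.4 and 44.3 CPM. The AAV206-GFP mice lay close together and above 4 of the 5 AAV2-GFP mice, and AAV2-GFP replicate 1 lay above them all. With all mice the log2 fold change was 0.45 (SE 0.26, edgeR adjusted p = 0.265). Without replicate 1 the means were 26.9 ± 4.70 CPM (SD, n = 4) and 50.4 ± 4.39 CPM (SD, n = 5), a 1.88-fold higher level with AAV206-GFP (log2 fold change 0.91, SE 0.11, edgeR adjusted p = 9.3e-05). Fgf2 passed in all 9 fits that left out a further mouse, with log2 fold changes of 0.78 to 0.96. In the single fits that kept replicate 1 and left out another mouse it did not pass.

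The Fgf2 values carry decimals in all 10 libraries, so some reads were divided between genes. On the opposite strand it overlaps Nudt6 (0.624 to 2.02 CPM), Fgf2os (0.773 to 2.80 CPM) and Gm42923 (0.155 to 2.33 CPM), each far below Fgf2 in level. Over the 9 mice without AAV2-GFP replicate 1, the genes of the 10 that followed Fgf2 most closely were Lcn2 (Pearson r = 0.87 on log2(CPM + 1)), Edn2 (0.84) and Cp (0.77). The vector groups are pooled in these correlations, so they contain the group difference itself.

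**Figure D3:**
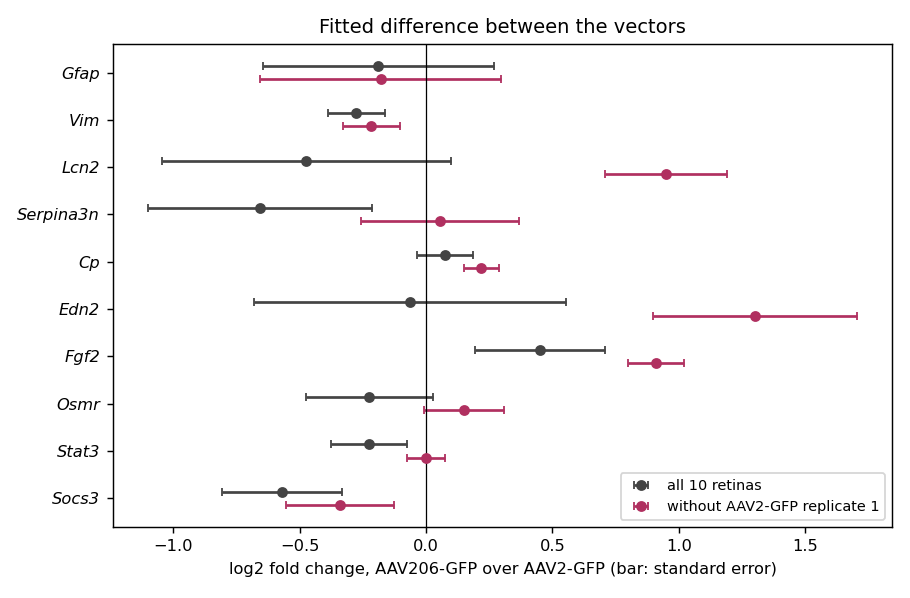
Fitted log2 fold change of AAV206-GFP over AAV2-GFP for the 10 genes, with all 10 mice (grey) and without AAV2-GFP replicate 1 (red). Points are edgeR estimates and bars are 1 standard error. Lcn2, Edn2 and Fgf2 are at 0.95, 1.301 and 0.91 without that mouse, and Gfap is at -0.19 with and -0.18 without it.

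Several genes that respond to fibroblast growth factor signalling were lower with AAV206-GFP. Of 18 tested genes of the pathway 4 passed as lower and 0 as higher, beside 5.30% and 5.95% of all tested genes. The median log2 fold change of the 18 was -0.14, against -0.01 over all tested genes. The transcription factor genes Etv4 and Etv5 and the inhibitor gene Spry4 are standard targets of this signalling, and Fgf9 encodes another ligand. The same 4 genes passed without AAV2-GFP replicate 1.

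Etv5 was at 48.5, 43.9, 56.6, 54.1 and 54.3 CPM with AAV2-GFP and at 37.4, 36.8, 31.1, 36.8 and 41.7 CPM with AAV206-GFP, without overlap. Its log2 fold change was -0.49 (SE 0.09, edgeR adjusted p = 0.00222), with decimals in 3 libraries. Spry4 was at 17.2, 20.4, 20.4, 17.3 and 18.7 CPM against 15.1, 11.1, 11.3, 12.6 and 13.0 CPM, again without overlap (log2 fold change -0.57, SE 0.11, edgeR adjusted p = 0.00391). Etv4 was 2.14-fold lower with AAV206-GFP (log2 fold change -1.10, edgeR adjusted p = 0.0169), and Fgf9 was lower too (log2 fold change -0.35, edgeR adjusted p = 0.0195). Etv4, Etv5 and Spry4 passed in all 10 fits that left out 1 mouse, and Fgf9 in 7. Dusp6, a further target that dampens the pathway, did not pass (-0.40, edgeR adjusted p = 0.0748), although its groups did not overlap.

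**Figure D4:**
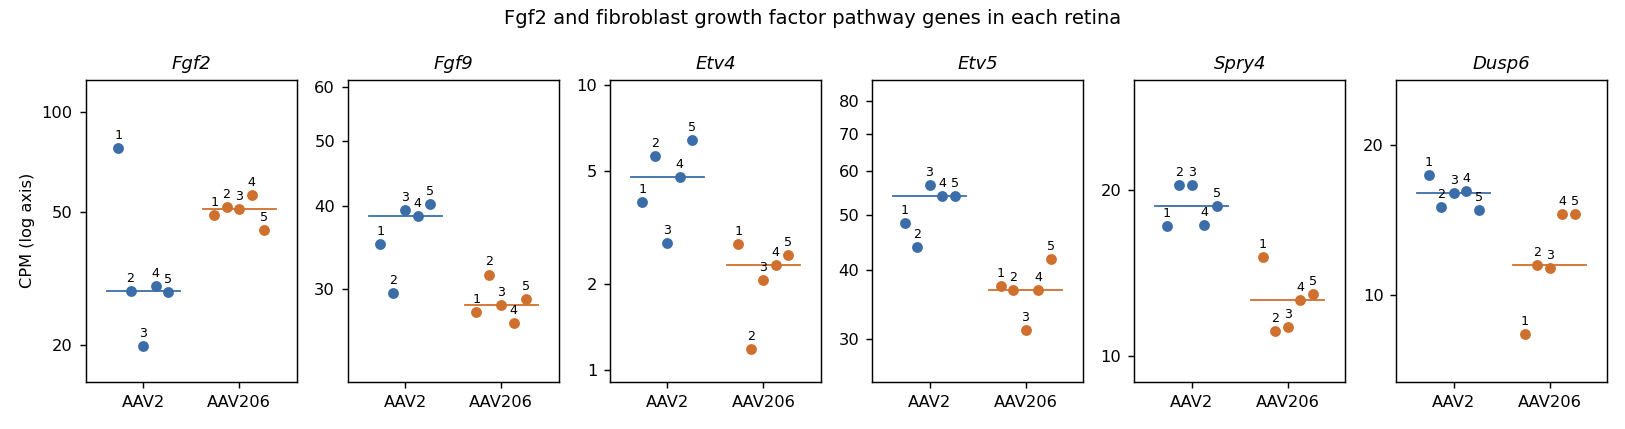
Fgf2, the ligand gene Fgf9 and the pathway targets Etv4, Etv5, Spry4 and Dusp6 in each retina, in CPM on log axes. Points are mice with their replicate numbers and lines are group medians. The AAV206-GFP mice lie above AAV2-GFP replicates 2 to 5 in Fgf2 and below all AAV2-GFP mice in Etv5, Spry4 and Dusp6.

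Osmr (ENSMUSG00000022146, chr15:6813577-6874969, minus strand) encodes the receptor subunit for oncostatin M, a cytokine of the interleukin-6 family. The AAV2-GFP mice had 20.4, 6.29, 10.5, 8.71 and 7.09 CPM and the AAV206-GFP mice 8.16, 9.30, 9.75, 8.79 and 9.33 CPM. The AAV206-GFP values lay inside the AAV2-GFP range, with an SD of 0.609 against 5.73 CPM, or 1.87 CPM without AAV2-GFP replicate 1. The log2 fold change was -0.22 (SE 0.25, edgeR adjusted p = 0.596). Without replicate 1 it was 0.15 (edgeR adjusted p = 0.566). Osm itself, the ligand gene, had 0 counts in 9 retinas and 0.0904 CPM in AAV2-GFP replicate 1.

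Stat3 (ENSMUSG00000004040, chr11:100885098-100939540, minus strand) encodes the transcription factor of the pathway. It was at 127, 67.7, 65.0, 70.7 and 71.0 CPM with AAV2-GFP and at 74.1, 74.0, 61.7, 70.8 and 62.1 CPM with AAV206-GFP. Apart from AAV2-GFP replicate 1 all retinas lay between 61.7 and 74.1 CPM, and the groups overlapped. Without that mouse the means were 68.6 ± 2.80 CPM (SD, n = 4) and 68.5 ± 6.22 CPM (SD, n = 5), and the 95% interval of the log2 fold change ran from -0.15 to 0.15 (edgeR adjusted p = 0.993). With all mice the log2 fold change was -0.23 (SE 0.15, edgeR adjusted p = 0.341). The RNA level does not measure the phosphorylated, active protein. Stat3 overlaps Stat5a on the opposite strand, which was at 1.66 to 5.87 CPM.

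Socs3 (ENSMUSG00000053113, chr11:117966079-117970047, minus strand) encodes the feedback inhibitor that STAT3 induces. Its values were 8.77, 3.68, 5.72, 5.32 and 3.93 CPM with AAV2-GFP. They were 4.88, 3.47, 3.28, 3.23 and 3.56 CPM with AAV206-GFP. All AAV206-GFP mice but replicate 1 were below all AAV2-GFP mice. The log2 fold change was -0.57 (SE 0.24, unadjusted p = 0.0288, edgeR adjusted p = 0.129). Unlike Lcn2, Edn2 and Osmr it kept its sign without AAV2-GFP replicate 1, at -0.34 (edgeR adjusted p = 0.311).

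**Figure D5:**
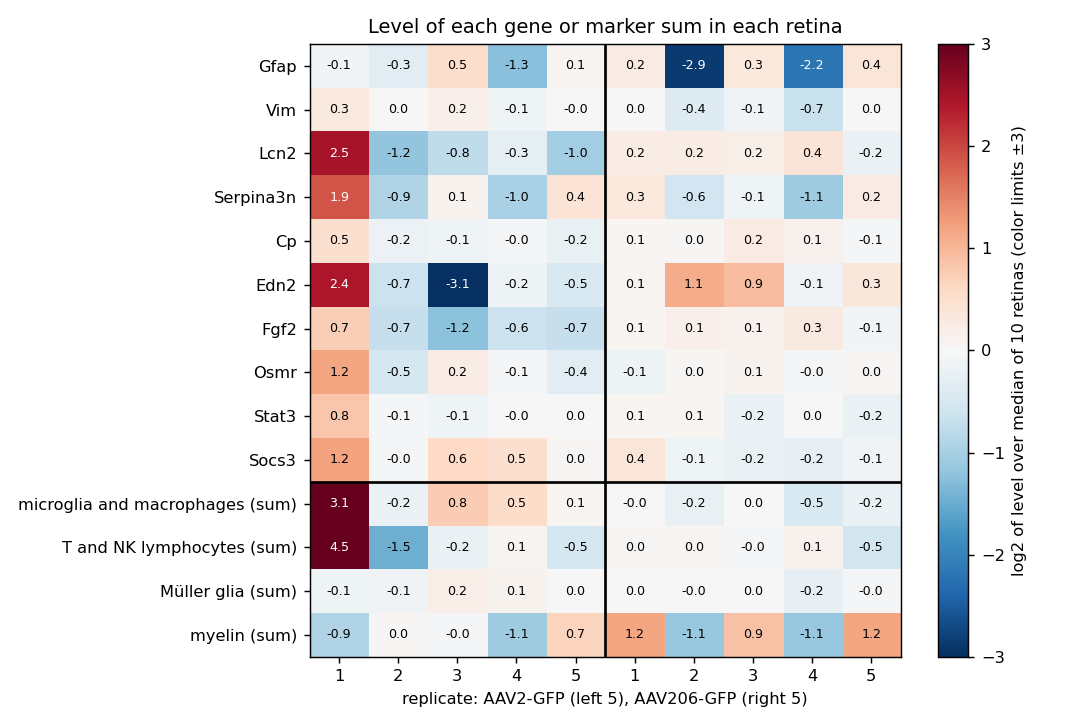
Level of each gene and of 4 summed marker lists in every retina, as log2 of the CPM over the median of the 10 retinas. Red is above and blue below the median, and colours saturate at 3 in either direction. AAV2-GFP replicate 1 is red in most rows and deepest in the immune cell sums, and Gfap and the myelin sum are both blue in AAV206-GFP replicates 2 and 4 and in AAV2-GFP replicate 4.

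Upstream of Stat3, most cytokine genes were barely detected. Of 9 ligand genes of the interleukin-6 family 3 were tested and 0 passed with edgeR, with 1 at an unadjusted p-value under 0.05 (Cntf, log2 fold change -0.86, edgeR adjusted p = 0.145) and 0 past the threshold with DESeq2 or limma-voom. Lif, the ligand that Müller glia make when photoreceptors are damaged, was too low to be tested with all mice. It was at 0.452, 1.08, 1.08, 1.21 and 1.37 CPM with AAV2-GFP and at 0.168, 0.456, 0.345, 0.628 and 0.424 CPM with AAV206-GFP. The 4 AAV2-GFP mice other than replicate 1 lay above all AAV206-GFP mice. Without replicate 1 Lif passed the filter on low counts only through those 4 mice, so its values are given as a description.

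Over all tested genes, 5.95% passed as higher and 5.30% as lower with AAV206-GFP, and the counts of the lists that follow stand beside these shares. Of 7 tested receptor and kinase genes, Jak1 was higher (log2 fold change 0.31, edgeR adjusted p = 0.0182) and Il11ra1 lower (-0.36, edgeR adjusted p = 0.0301, decimals in 9 libraries) with AAV206-GFP. Jak1 passed in 8 and Il11ra1 in 5 of the 10 fits that left out 1 mouse. Il6st, which encodes gp130, and Lifr did not pass (-0.04 and 0.09, edgeR adjusted p = 0.760 and 0.497). Stat2, which carries interferon signals, was lower with AAV206-GFP (-0.53, edgeR adjusted p = 0.0337). It passed in 3 of those 10 fits, not in the one without AAV2-GFP replicate 1 (edgeR adjusted p = 0.0584). Stat2 passed with DESeq2 (adjusted p = 0.00883) and not with limma-voom (adjusted p = 0.0561). Its high values were in AAV2-GFP replicates 1 and 4 (77.6 and 87.2 CPM). The other AAV2-GFP mice were at 44.6 to 54.3 CPM and the AAV206-GFP mice at 39.2 to 47.3 CPM. Of 13 tested inhibitors of the pathway other than Socs3, 1 passed: Pias4 (-0.26, edgeR adjusted p = 0.0480), which passed in 2 of the 10 fits and not with limma-voom (adjusted p = 0.0504). Without AAV2-GFP replicate 1 it was at -0.27 (edgeR adjusted p = 0.0555). Of 9 tested further genes induced by STAT3, 0 passed with edgeR and 1 was at an unadjusted p-value under 0.05 (Junb, -0.34, edgeR adjusted p = 0.0884), and 0 passed with DESeq2 or limma-voom.

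Of 7 tested genes raised in reactive astrocytes of any kind, 2 were lower with AAV206-GFP: Hspb1, a small heat shock protein gene (2.08-fold, log2 fold change -1.06, edgeR adjusted p = 0.00170, decimals in 4 libraries), and S1pr3, a sphingosine phosphate receptor gene (-0.52, edgeR adjusted p = 0.0262). Hspb1 was at 5.79 to 8.77 CPM with AAV2-GFP and 2.73 to 3.97 CPM with AAV206-GFP, and it passed in all 10 fits that left out 1 mouse, S1pr3 in 6. Nes, the gene for the filament protein nestin, was at -0.96 (edgeR adjusted p = 0.0520) and joined them without AAV2-GFP replicate 1 (-1.09, edgeR adjusted p = 0.0240). Like Gfap, Nes was lowest in AAV206-GFP replicates 2 (3.56 CPM) and 4 (2.78 CPM). Over all tested genes, these libraries were both among the lowest 3 of the 10 in 13.0%.

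Of 11 tested genes that mark astrocytes activated by inflammation (the A1 set), Fkbp5, a gene induced by glucocorticoids, was higher with AAV206-GFP (0.67, edgeR adjusted p = 7.8e-05), at 32.1 to 39.5 CPM against 21.1 to 24.1 CPM. Gbp2 (-3.26, edgeR adjusted p = 0.0251), H2-T23 (-1.92, edgeR adjusted p = 0.0280) and Psmb8 (-2.29, edgeR adjusted p = 0.0378), which interferons induce in many cell types, were lower. The high values of these 3 genes were in AAV2-GFP replicates 1 and 4: Gbp2 was at 80.4 and 38.2 CPM there and at 1.53 to 5.34 CPM in the other 8 mice. Each passed in 3 of the 10 fits that left out 1 mouse and not with limma-voom (adjusted p = 0.344, 0.179 and 0.233). Without AAV2-GFP replicate 1 they were at -2.15, -1.24 and -1.37 (edgeR adjusted p = 0.0528, 0.0554 and 0.0975). Fkbp5 passed in all 10 of these fits. Of 8 tested genes that mark astrocytes after ischaemia (the A2 set), 0 passed with edgeR and 1 was at an unadjusted p-value under 0.05 (S100a10, -0.39, edgeR adjusted p = 0.148), and 0 passed with DESeq2 or limma-voom.

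Calls among markers of resting glia depended on the method. Of 10 tested Müller glia markers 0 passed with edgeR or limma-voom and all mice, against 11.2% and 10.6% of all tested genes. With DESeq2 3 passed, against 12.6%. By edgeR 5 were at an unadjusted p-value under 0.05, against 28.0%. Without AAV2-GFP replicate 1, Rlbp1 (-0.28, edgeR adjusted p = 0.0249) and Slc1a3 (-0.25, edgeR adjusted p = 0.0428) passed as lower, 2 of 10 against 12.2%. Of 5 tested astrocyte markers 0 passed with edgeR, DESeq2 or limma-voom. Beside 28.0% of all tested genes, 2 of the astrocyte markers were at an edgeR unadjusted p-value under 0.05. One of these was Gja1, a gap junction gene of astrocytes, which was at 4.79, 5.93, 5.65, 1.69 and 5.72 CPM with AAV2-GFP and 13.1, 4.47, 12.6, 3.05 and 13.7 CPM with AAV206-GFP (0.98, edgeR adjusted p = 0.107). As with Gfap, AAV206-GFP replicates 2 and 4 were the low mice of their group for Gja1. The summed astrocyte markers did not share this pattern. They were at 295, 276, 284, 278 and 276 CPM in AAV206-GFP replicates 1 to 5.

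Among the markers of other cells that a retina sample can hold, 4 of 5 tested red blood cell genes (Hba-a1, Hba-a2, Hbb-bs and Alas2) were higher with AAV206-GFP, and 2 of 4 tested lens genes (Cryaa and Crybb2), 1 of 7 tested pigment epithelium genes (Rgr) and 2 of 8 endothelial genes (Cldn5 and Kdr) were lower. The microglia and macrophage genes C1qa and C1qc passed as lower, 2 of 9 tested, and neither passed without AAV2-GFP replicate 1. Of 7 tested myelin genes Mal was higher, and it did not pass without that mouse. All 7 had a log2 fold change above 0, with a median of 1.03. Without that mouse 8 were tested and 8 were above 0, with a median of 0.94. The part of all these markers in the levels of the 10 genes was not tested, apart from the myelin fit above.

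The genes whose pattern over the 10 mice was most like that of Gfap, among 9081 genes with at least 5 CPM on average and whole counts, were Phkb (Pearson r = 0.90 on log2(CPM + 1)), Dolpp1 (0.88), Apod (0.87), Dpp7 (0.87) and Snrnp25 (0.86), with Spearman correlations between 0.76 and 0.83. Without AAV2-GFP replicate 1 the Pearson values were 0.86 to 0.92. Leaving out the 2 mice farthest from the median of Gfap, AAV206-GFP replicates 2 and 4, lowered these to between 0.57 and 0.68. For Edn2 they were Mbnl1 (0.97), 1700017B05Rik (0.94), Ahr (0.91), Gm15983 (0.91) and Helb (0.90), with Spearman correlations between 0.66 and 0.95 and Pearson values of 0.78 to 0.94 without AAV2-GFP replicate 1. Without AAV2-GFP replicates 1 and 3, the farthest from the median of Edn2, Mbnl1 kept 0.92 and Helb 0.54. These are the highest of 9081 values each and describe 10 libraries.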

How the data were processed

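RNA from 10 retinas was extracted with Trizol and made into libraries with an NEBNext Ultra RNA kit, and pairs of 150-base reads were sequenced on a NovaSeq, per the labels' protocols. The submitters' processing notes name STAR 2.7.10b, RSEM 1.3.1 and the build mm10, and the annotation is not given in the sources used here. The authors deposited estimated counts per gene, of which 5.95% carried decimals, and these were rounded. Symbols, coordinates and exon lengths came from GENCODE M21 (GRCm38). Genes were kept by filterByExpr (minimum count 10), scaled by TMM and tested with edgeR 4.0.16 (quasi-likelihood, no covariates, R 4.3.3), with Benjamini-Hochberg adjustment over all tested genes at 0.05. CPM uses TMM-scaled library sizes. At this depth 3 counts are 0.232 to 0.274 CPM, which covers counting error only. Alternatives used DESeq2 1.42.0, limma 3.58.1, other scalings and filters, a replicate block and left-out mice. The edgeR fit without covariates was tested on simulated counts that held no outlying library, and the alternatives were not tested in this way. The study's design gives 5 mice per group, and each library was taken as 1 mouse.

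The 10 genes, 20 other lists and the tests were chosen with earlier results of these data known, and the myelin list and its covariate were added after the data were seen. Every one of the 10 genes is reported, and from each other list the genes past the threshold (at most 4) or those with the smallest p-values (at most 3), except that some results are not reported here. Named outside this rule, after their values were seen, were Lif, Osm, Dusp6, Nes, Gja1, Il6st, Lifr, Rlbp1, Slc1a3 and Mobp.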

Additional observations from a re-analysis of the deposited data

Results flagged for a closer look

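In groups of 5, the gap between the highest or lowest mouse and its nearest neighbour was divided by the range of the group, and ratios above 0.71 are given here. Of 28 group results examined, 11 were above on CPM and 8 on log2(CPM + 1). For independent, normally distributed results 1.4 would be above. These results share the same libraries, so that number is no measure of chance here. For the 10 genes there were 7 of 20, and 6 of these were high values of AAV2-GFP replicate 1: Lcn2 (20.5 CPM against at most 2.98, ratio 0.928), Stat3 (127 against at most 71.0 CPM, ratio 0.904), Edn2 (14.4 against at most 2.42 CPM, ratio 0.850), Fgf2 (77.6 against at most 29.9 CPM, ratio 0.826), Cp (169 against at most 119 CPM, ratio 0.778) and Serpina3n (22.1 against at most 8.03 CPM, ratio 0.739). The seventh was Socs3 in AAV206-GFP replicate 1 (4.88 against at most 3.56 CPM, ratio 0.799). On log2(CPM + 1), 4 of the 20 were above, 3 of them from AAV2-GFP replicate 1.

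The same mouse was high for the summed microglia and macrophage markers (ratio 0.895) and the T and NK lymphocyte markers (ratio 0.970). AAV206-GFP replicate 4 was low for the summed Müller glia markers (3317 against at least 3782 CPM, ratio 0.727). AAV206-GFP replicate 5 was low for the T and NK lymphocyte markers (0.848 against at least 1.21 CPM, ratio 0.722), which is a few counts.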

How the results depend on the processing

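Of the 10 genes, 0 passed with other scalings, filters, DESeq2, limma-voom, robust dispersions, unrounded counts and the replicate block. The count was 1 with sample weights, 0 to 3 when 1 mouse was left out, and 3 without AAV2-GFP replicates 1 and 4. After AAV2-GFP replicate 1 was left out it was 1 to 3 without a further mouse and 1 without AAV206-GFP replicates 2 and 4 as well. With the myelin covariate it was 2, and 5 without AAV2-GFP replicate 1. The share of all tested genes past the threshold in the covariate fits is not given here, so these counts cannot be set beside it.

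The number of genes past the threshold was 1747. The replicate block left 1085, fits without 1 mouse (or 1 more after AAV2-GFP replicate 1) gave 985 to 2209, those without AAV2-GFP replicates 1 and 4 gave 985, without AAV206-GFP replicates 2 and 4 548, and without these and AAV2-GFP replicate 1 673. Mice with the same replicate number did not deviate together (correlations between -0.058 and 0.026), and 0 of 5 correlated best with their own number.

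The fitted direction changed for the log2 fold change of Edn2, Lcn2, Osmr, Gfap, Serpina3n and Stat3, and the cause was not tested. Edn2 was at 0.89 with limma-voom, 0.95 with sample weights, 0.61 with the replicate block, 1.57 without AAV2-GFP replicates 1 and 4, 1.24 without AAV2-GFP replicate 1 and AAV206-GFP replicates 2 and 4, 0.32 with the myelin covariate and 1.34 with it and without AAV2-GFP replicate 1, and ranged from -0.37 to 1.57 in fits without 1 mouse, or without 1 more after AAV2-GFP replicate 1 (the ranges that follow are over the same fits). Under the same settings Lcn2 was at 0.34, 0.55, 0.25, 1.14, 0.85 and, with myelin and without AAV2-GFP replicate 1, 1.01 (range -0.71 to 1.14). Osmr was at 0.073 with sample weights, 0.17 and 0.15 in the 2 larger omissions and 0.16 with myelin and without AAV2-GFP replicate 1 (range -0.36 to 0.29). Gfap was at 0.41 without AAV206-GFP replicates 2 and 4 and 0.42 without AAV2-GFP replicate 1 too (range -0.43 to 0.11). Serpina3n was at 0.37 in the latter (range -0.87 to 0.33). Stat3 was at 0.0053 without AAV2-GFP replicates 1 and 4 and 0.010 with myelin and without AAV2-GFP replicate 1 (range -0.29 to 0.036). The narrower promoter motif was in 1 gene instead of 2.

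Depth limits Edn2 and Lcn2 most, with 4 to 64 and 18 to 54 counts per library outside AAV2-GFP replicate 1.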
